A study of Mus musculus with 10 samples.

Results

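RNA sequencing compared MC3T3-E1 cells that had grown to confluence with subconfluent cells of the same line, both in growth medium and before any osteogenic induction. The libraries were chosen by their labelled stage, replicates A and B of subconfluent cells and replicates A and B of confluent cells, and are 4 of the 10 in the series. MC3T3-E1 is an established pre-osteoblast line from mouse calvaria, and a single subclone, subclone 4, was grown in αMEM with 10% iFBS in both groups. The other 6 libraries, 2 at each time, came from cells held in osteogenic medium (ascorbic acid at 50 µg/ml, β-glycerophosphate at 10 mM) for 24 h, 14 d or 21 d. All were sequenced as 51 bp read pairs. The comparison addresses what changes in pre-osteoblasts as they fill the dish, before ascorbic acid and phosphate are added.

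Cells that touch their neighbours on all sides slow their division, a response called contact inhibition. Crowding and loss of tension on the actin cytoskeleton activate the Hippo kinases (Mst and Lats), which keep the coactivators YAP and TAZ out of the nucleus and away from TEAD factors on growth genes such as Ccn2 and Ankrd1. Pre-osteoblasts are usually grown to confluence before induction. The osteoblast programme is built on Runx2 and Sp7, and later on secreted and membrane proteins that lay down collagen and load it with mineral, among them Alpl, Phospho1 and Ibsp.

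Single mineralization genes were far higher in confluent cells, and some YAP/TEAD targets were lower. Ibsp (bone sialoprotein) rose 12.3-fold and Phospho1 (a phosphatase of matrix vesicles) 11.4-fold, Fos and Egr1 rose 3.72-fold and 3.59-fold, and Cdkn1a, the cell cycle inhibitor p21, rose 2.3-fold. The cytokine gene Csf1 fell 2.59-fold and the focal adhesion gene Zyx 2.3-fold. Rrm2, a gene of DNA synthesis, fell 1.59-fold, but did not pass an adjusted p under 0.05 with any library left out. Each fold change compares 2 libraries per group.

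The 4 libraries held 148950530 counts in subconfluent A, 44736156 in subconfluent B, 49717716 in confluent A and 162939333 in confluent B. The deepest had 3.64 times the counts of the shallowest, and each group held 1 deep and 1 shallow library. The first principal component, with 61.9% of the variance over the 4 libraries, separated the groups, and the second, with 21.3%, separated the deep libraries from the shallow pair. The replicates are labelled only A and B, and nothing says that they came from separate cultures, so p-values measure the spread between labelled replicates, pooled over the 10 libraries of the series.

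Markers of the labelled cell type were present. All 11 pre-osteoblast markers were tested and none was at 0. Their summed level was 9536, 9251, 10020 and 9733 RPKM (counts divided by gene length and by the read total of the library) in subconfluent A and B and confluent A and B. Col1a1, the chain that makes up most of type I collagen, was the most abundant at 5655, 5442, 6278 and 6152 RPKM. Endothelial markers summed to at most 0.146 RPKM, with Esam the most abundant and Cdh5 and Kdr at 0, and neural markers to at most 12.6 RPKM, nearly all Tubb3, with Sox2 at 0. Epithelial markers summed to 2.62, 2.24, 0.83 and 1.48 RPKM, led by Krt14, with Epcam, Krt8, Krt18 and Esrp1 at 0. Muscle markers summed to 43.1, 43.8, 42.1 and 37.6 RPKM, nearly all Acta1, with Myod1 and Myf5 at 0.

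Macrophage and blood markers summed to 16.8, 17.8, 20.3 and 203 RPKM, and the last value came from Tyrobp, a signalling adaptor of myeloid cells, at 0, 0, 0 and 179 RPKM. Ptprc and Adgre1 had no counts in any of the 4 libraries, and Tyrobp did not pass the test (edgeR adjusted p = 0.4). Adipocyte markers summed to 2.87, 3.27, 4.61 and 5.52 RPKM, with Cd36 at 0. Their most abundant gene, the transcription factor gene Cebpa, was at 2.67 and 3 RPKM in subconfluent and 4.43 and 5.36 in confluent cells (log2 fold change 0.77 ± 0.13, SE; edgeR adjusted p = 0.025, up to 0.2 without subconfluent A). Chondrocyte markers summed to 188, 184, 110 and 101 RPKM, with Col9a1 at 0. Most of that was Col2a1, the cartilage collagen, at 157 and 156 RPKM in subconfluent and 81.1 and 74.8 in confluent cells, which fell (log2 fold change −1.03 ± 0.13, SE; edgeR adjusted p = 0.0081, between 0.048 and 0.097 with 1 library left out). In RNA from whole cultures, fewer cells of a type and less RNA per cell cannot be told apart. The part of these markers in the changes described here was not tested.

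Of 20808 genes tested with edgeR, 683 passed an adjusted p under 0.05, 405 of them higher in confluent cells (1.95% of genes tested) and 278 lower (1.34%). A gene was called when it also changed more than 2-fold. There were 297 calls, and the groups did not overlap in any of them. The share of all genes tested without overlap was not counted, so this is not a result about the called genes. Confluent cells were higher in 209 of these (1%) and lower in 88 (0.423%). The median log2 fold change was 1.62 among genes called higher and −1.30 among genes called lower, against 0.00 over all genes tested. Genes called higher had a median of 2.1 CPM (counts per 1e+06 counts of the library) over the 4 libraries and genes called lower 8.69 CPM, beside 8.86 CPM for all genes tested. Of the 209 called higher, 102 were under 2 CPM, against 21 of the 88 called lower.

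The unadjusted p was under 0.05 in 3566 genes (17.1% of those tested), 1810 higher and 1756 lower, which is the background for the counts of gene lists at that level. The counts changed with the libraries and the tool used. The spread was pooled over all 10 libraries, and the replicates of the 24 h stage differed most (SD of the log2 ratio of A to B 0.78, against 0.33 in subconfluent and 0.33 in confluent cells). Without the 24 h pair the calls came to 495, with 331 higher and 164 lower, and included 294 of the 297. DESeq2 called 464, 287 of them shared. At an adjusted p under 0.05 whatever the fold, 3299 genes passed without the 24 h pair and 1855 by DESeq2, against 683, which is the background for such counts in the lists. Leaving out a library of the groups compared gave 237 calls without confluent A, 131 without confluent B, 107 without subconfluent A and 145 without subconfluent B, with the remaining sample of that group assumed to vary like the other groups.

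**Figure D1:**
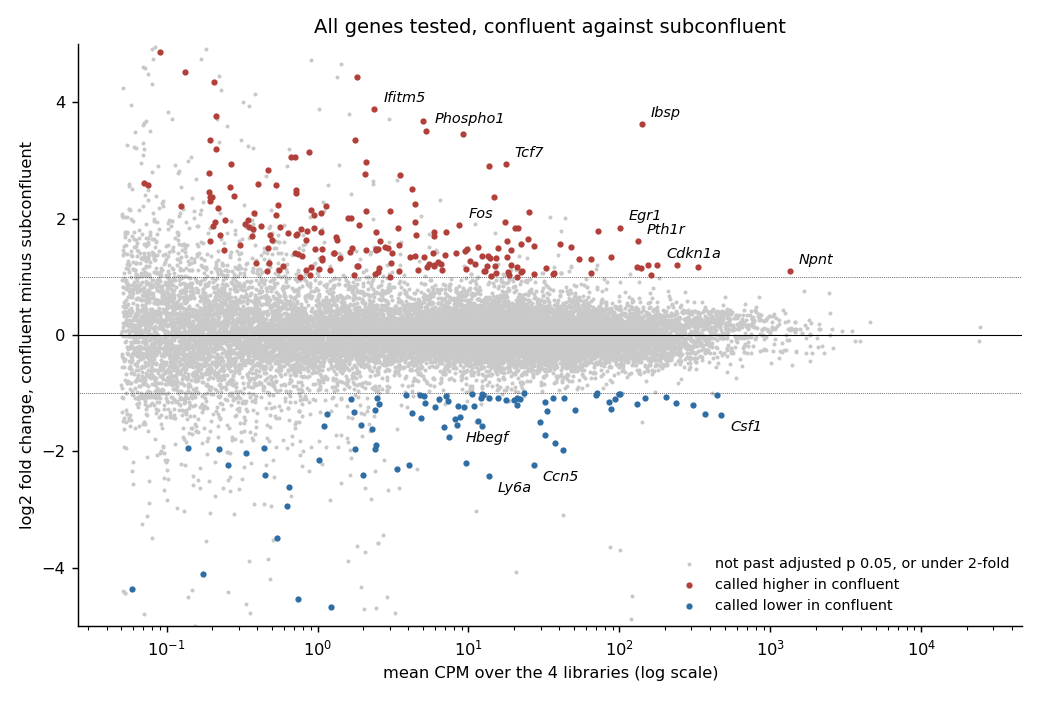
Each point is a gene, with its mean CPM over the 4 libraries (log axis) against its log2 fold change, confluent minus subconfluent, and dotted lines mark 2-fold. The 209 genes called higher are red and the 88 called lower blue, and 1170 genes of 0.05 CPM or less or beyond a log2 change of 5 in either direction, 11 of them called, are not drawn.

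Several of the largest rises were in genes of mineralization. Of 28 osteoblast transcription factors and early markers tested, 10 rose and 1 fell at an adjusted p under 0.05, with a median log2 fold change of 0.25. Ibsp, the gene of bone sialoprotein, which binds mineral and integrins (chr5:104299171-104311469, plus strand), stood at 20 and 11.8 RPKM in subconfluent and 196 and 205 RPKM in confluent cells. Its log2 fold change was 3.63 ± 0.25 (SE, n = 2 per group; edgeR adjusted p = 9.0e-04). Phospho1, whose product frees phosphate inside matrix vesicles (chr11:95824499-95832140, plus strand), was at 3.47 and 3.37 RPKM against 39.3 and 40.4 RPKM. The change was 3.51 ± 0.13 on the log2 scale (edgeR adjusted p = 2.5e-04), the smallest adjusted p in the list. Ifitm5, a membrane protein made by osteoblasts, rose from 0.715 and 0.594 to 8.87 and 11.3 RPKM, a log2 fold change of 3.88 ± 0.27 (edgeR adjusted p = 0.0011). In each of these genes the confluent libraries lay far above the subconfluent pair and close to each other.

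Alpl, the alkaline phosphatase of bone, was lower in level, at 2.12 and 1.85 RPKM in subconfluent and 5.15 and 5.89 in confluent cells, and rose 2.73-fold (edgeR adjusted p = 0.0018). Pth1r, the receptor of parathyroid hormone, went from 41.2 and 41.2 RPKM to 115 and 142 RPKM, a log2 fold change of 1.62 ± 0.15 (edgeR adjusted p = 0.0025). Sp7, the osteoblast transcription factor osterix, was at 23.8 and 23.3 RPKM against 43.4 and 41.5 RPKM and rose 1.77-fold (edgeR adjusted p = 0.0037). Runx2, which acts upstream of Sp7, was at 18.7 and 17.7 RPKM against 26.1 and 23.8 RPKM and did not pass (edgeR adjusted p = 0.17). Its relative Runx1 fell, from 2.69 and 2.72 to 1.61 and 1.44 RPKM (edgeR adjusted p = 0.03). Smpd3, a sphingomyelinase of bone and cartilage, rose 5.17-fold with little spread, 3.16 and 3.29 RPKM against 16.8 and 17.1 RPKM (edgeR adjusted p = 0.029). Dlx3 and Phex, both at 1.07 RPKM or less in every library, also rose, by 2.16 and 1.75 on the log2 scale.

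Osteocalcin is encoded by near-identical copies, so reads could be split between them and their values are uncertain. Bglap2 was at 1.6 and 4.97 RPKM in subconfluent and 18.1 and 23.3 in confluent cells (edgeR adjusted p = 0.045). Bglap was at 1.11 and 3.89 against 12.9 and 16.7 RPKM (edgeR adjusted p = 0.055). The subconfluent libraries differed from each other severalfold in both copies, yet stayed below both confluent libraries. Dmp1, a gene of later osteoblasts and osteocytes, was at 1.26 and 1.18 against 0.886 and 0.925 RPKM and did not pass (edgeR adjusted p = 0.44). Ibsp, Phospho1, Ifitm5 and Alpl passed with any 1 of the 4 libraries left out (highest edgeR adjusted p 0.011, 0.0094, 0.026 and 0.029), whereas Sp7 reached 0.061 and 0.066 without subconfluent A or B, Pth1r 0.05 without subconfluent A, and Smpd3, Bglap2 and Runx1 up to 0.2, 0.25 and 0.24. Phospho1 shares exon bases with Zfp652 and with Abi3 on the opposite strand, and Smpd3 with Prmt7, all 3 partners being more abundant. Whether reads were counted by strand is not stated, so part of these counts could belong to the neighbour.

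**Figure D2:**
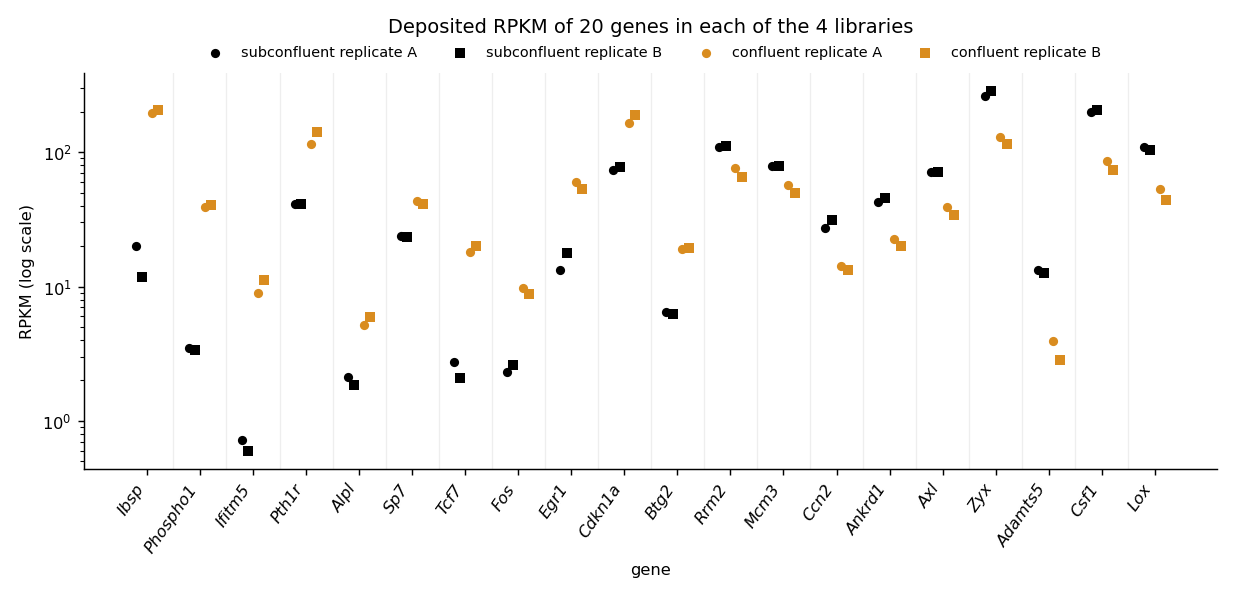
RPKM (log axis) of 20 genes in each of the 4 libraries, black for subconfluent and orange for confluent, circles for replicate A and squares for replicate B. For Ibsp the subconfluent points lie at 20 and 11.8 RPKM and the confluent points at 196 and 205 RPKM, and in Csf1 the order is the opposite.

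Wnt signals act through Tcf and Lef factors and promote bone formation. Among 29 Wnt pathway genes tested, 4 rose and 2 fell (median log2 fold change 0.13.) Tcf7, the gene of the factor TCF1, was at 2.75 and 2.07 RPKM in subconfluent and 18 and 20 RPKM in confluent cells. It rose 7.69-fold (log2 fold change 2.94 ± 0.17, SE; edgeR adjusted p = 5.4e-04). Rnf43, a ubiquitin ligase that removes Wnt receptors, went from 0.795 and 0.693 to 2.51 and 2.65 RPKM (edgeR adjusted p = 0.0014). Wif1, a secreted protein that binds Wnt ligands, went from 2.32 and 2.35 to 4.92 and 5.91 RPKM (edgeR adjusted p = 0.0026). Nkd2 passed on very few reads, 1 and 1 counts against 11 and 51.

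Both genes of the list that fell encode secreted CCN proteins, known from Wnt-treated cells. Ccn5 was at 34.1 and 38.4 RPKM in subconfluent and 7.73 and 7.93 RPKM in confluent cells, a log2 fold change of −2.24 ± 0.15 (SE, n = 2 per group; edgeR adjusted p = 8.8e-04). Ccn4 was at 20.6 and 20.2 against 9.11 and 7.93 RPKM, a log2 fold change of −1.29 ± 0.17 (edgeR adjusted p = 0.01). Tcf7, Rnf43, Wif1 and Ccn5 passed with any of the 4 libraries left out. Ccn4 did not pass without confluent B, subconfluent A or subconfluent B, nor Nkd2 without subconfluent A.

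Immediate early genes are switched on within minutes by serum, growth factors or stress, largely through ERK and serum response factor. Of 28 such genes and ERK feedback genes, 11 passed upward and 2 downward, and the median log2 fold change was 0.46. Fos, a subunit of the AP-1 transcription factor, was at 2.31 and 2.6 RPKM in subconfluent and 9.76 and 8.8 RPKM in confluent cells (log2 fold change 1.89 ± 0.15, SE; edgeR adjusted p = 0.0014). Egr1, a zinc finger factor, was at 13.3 and 17.7 against 59.6 and 53.4 RPKM (1.84 ± 0.18; edgeR adjusted p = 0.0028). Ier2 rose 2.22-fold and Spry1, an inhibitor of receptor tyrosine kinase signals, 2.78-fold. Nr4a1, Klf2, Egr2, Atf3, Dusp1, Myc and Klf4 made up the rest, with log2 fold changes between 0.52 and 1.11.

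The 2 that passed downward were Fosl1 and Maff, both of families related to Fos. Of the 28 genes, 18 had fitted values above 0 and 10 below. At an unadjusted p under 0.05, 15 were higher and 4 lower. Fosl1, a relative of Fos that is slower to respond, fell from 22 and 22.8 to 11.5 and 9.53 RPKM, a log2 fold change of −1.12 ± 0.14 (edgeR adjusted p = 0.0086). Maff, a small Maf factor, went from 8.14 and 9.52 to 3.02 and 3.59 RPKM (edgeR adjusted p = 0.0031). Fosl1 shares exon bases with the more abundant Ccdc85b on the opposite strand, so part of its counts could belong to that gene. Fos, Egr1, Spry1 and Maff passed with any library left out. Fosl1 did not pass without confluent B, subconfluent A or subconfluent B. Ier2 passed in none of these fits, and each of them gave fewer rises among the 28 genes.

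Most genes of growth arrest and of replication did not pass the test. D-type cyclins, CDK inhibitors and genes linked to arrest gave 4 rises and 0 falls among 20 tested, with a median log2 fold change of 0.05. At an unadjusted p under 0.05, 6 were higher and 3 lower, and DESeq2 gave 2 falls. Cdkn1a, the gene of p21 (chr17:29090976-29100727, plus strand), was at 74.1 and 77.8 RPKM in subconfluent and 165 and 190 RPKM in confluent cells, a log2 fold change of 1.20 ± 0.10 (SE; edgeR adjusted p = 0.0018). Btg2, an antiproliferative cofactor of mRNA deadenylation, was at 6.47 and 6.27 against 19.1 and 19.5 RPKM, a log2 fold change of 1.57 ± 0.08 (edgeR adjusted p = 3.4e-04). Gas2 and Tob1 rose 1.62-fold and 1.44-fold. The main D-type cyclin gene, Ccnd1, was at 126 and 126 against 116 and 102 RPKM and did not pass (edgeR adjusted p = 0.8). Cdkn1a and Btg2 passed with any library left out, at an edgeR adjusted p of at most 0.04 and 0.01, while Gas2 reached 0.24 and Tob1 0.25.

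Of 34 genes of DNA replication and S phase, 4 fell and 0 rose, with a median log2 fold change of −0.45. At an unadjusted p under 0.05, 21 were lower and 0 higher, and DESeq2 gave 0 rises. The fitted value was below 0 in 33 of the 34. Rrm2, the ribonucleotide reductase subunit that limits the supply of deoxynucleotides, was at 110 and 112 RPKM in subconfluent and 76.7 and 65.3 RPKM in confluent cells, a log2 fold change of −0.67 ± 0.13 (SE; edgeR adjusted p = 0.04). Mcm3, Mcm6 and Mcm7 belong to the helicase that unwinds DNA at replication forks, and fell by 0.59, 0.51 and 0.45 on the log2 scale. Both confluent libraries were below both subconfluent libraries in all 4 genes, but the share of all genes tested without overlap was not counted. None of the 34 passed when any of the 4 libraries was left out, 19 fell without the 24 h pair and 20 fell by DESeq2. Mcm7 shares exon bases with the more abundant Cops6.

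For mitosis, edgeR gave 0 rises and 0 falls among 28 genes, the lowest adjusted p being 0.055, with a median log2 fold change of −0.30. At an unadjusted p under 0.05, 8 were lower and 0 higher, and DESeq2 gave 1 fall. Ube2c, which drives the exit from mitosis, was the most abundant, at 146 and 138 RPKM in subconfluent and 98.9 and 108 RPKM in confluent cells (edgeR adjusted p = 0.19). The summed level of the list was 1376 and 1364 RPKM against 1161 and 1155 RPKM, so most of the mitotic RNA was still present in confluent cells. Without the 24 h pair 2 of the 28 fell.

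The promoters of replication genes are known to bind E2F factors. The letters TTCCCGCC, TTTCCCGC or TTTGGCGC were found on either strand, overlapping matches included, in 45.5% of the 33 promoters matched to the replication list, against 5.23% of 14860 promoters of all genes tested. Mitotic genes share another element, TTTGAA, which was in 72.7% of 22 promoters of the mitosis list and 12.7% of all. These are shares of RefSeq windows from 250 bases before to 50 after the gene start, with no test, and a match is not a binding site. They count every matched member, passed or not, and so describe the lists and not the change at confluence. The windows of the 3 helicase genes are shown from GRCm38.p6, 5′ to 3′ on the minus strand, with the matched letters of either strand in capitals, as examples of the genes that fell. They lie at chr1:20820263-20820562 (Mcm3), chr1:128359656-128359955 (Mcm6) and chr5:138171834-138172133 (Mcm7).
Mcm3: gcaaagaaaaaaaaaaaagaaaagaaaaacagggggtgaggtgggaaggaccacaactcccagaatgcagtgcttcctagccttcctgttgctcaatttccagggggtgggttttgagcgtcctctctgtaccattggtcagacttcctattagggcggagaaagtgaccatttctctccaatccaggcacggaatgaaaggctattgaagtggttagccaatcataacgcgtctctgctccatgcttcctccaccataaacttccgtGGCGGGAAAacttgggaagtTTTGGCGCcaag
Mcm6: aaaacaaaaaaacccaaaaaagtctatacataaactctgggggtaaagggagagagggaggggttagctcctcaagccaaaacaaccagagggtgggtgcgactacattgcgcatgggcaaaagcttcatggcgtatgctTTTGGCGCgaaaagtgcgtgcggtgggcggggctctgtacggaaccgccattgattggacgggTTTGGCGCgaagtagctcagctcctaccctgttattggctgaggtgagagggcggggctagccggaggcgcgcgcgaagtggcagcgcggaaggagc
Mcm7: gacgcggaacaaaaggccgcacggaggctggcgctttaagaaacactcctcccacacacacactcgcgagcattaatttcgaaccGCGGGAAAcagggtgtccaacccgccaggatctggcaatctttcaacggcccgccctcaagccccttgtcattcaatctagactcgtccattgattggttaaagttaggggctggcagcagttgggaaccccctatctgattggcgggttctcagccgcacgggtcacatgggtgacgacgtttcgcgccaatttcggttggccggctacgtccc

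Among 21 targets of YAP and TEAD tested, 1 rose and 5 fell (median log2 fold change −0.35). The difference between these counts was not tested. Ccn2, a secreted matrix protein and the target most often measured, was at 27.2 and 31.1 RPKM in subconfluent and 14.3 and 13.3 RPKM in confluent cells (log2 fold change −1.11 ± 0.10, SE; edgeR adjusted p = 0.0026). Ankrd1, an ankyrin repeat protein, was at 42.6 and 45.7 against 22.4 and 19.9 RPKM (−1.09 ± 0.13; edgeR adjusted p = 0.0059). Axl, a receptor tyrosine kinase, was at 71.3 and 71 against 39.1 and 34.1 RPKM (−0.98 ± 0.18; edgeR adjusted p = 0.036). Ccdc80 and Lats2 completed the falls, at −0.64 and −0.80 on the log2 scale. Nt5e, the ecto-enzyme CD73, rose on a low level, from 0.439 and 0.414 to 1.01 and 1.36 RPKM (edgeR adjusted p = 0.017).

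Ccn1, another commonly used target, showed no such shift, at 298 and 343 RPKM in subconfluent and 342 and 326 RPKM in confluent cells (log2 fold change 0.03, edgeR adjusted p = 0.93). Ccn2 passed with any library left out. Ankrd1 did not pass without confluent B, subconfluent A or subconfluent B, and Axl passed in none of these fits. The count of falls was 3 without confluent A and 1 without confluent B, subconfluent A or subconfluent B, 12 without the 24 h pair and 8 by DESeq2. The exons of Ccn2 overlap those of Gm15270 on the opposite strand, which had fewer reads.

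Components of the Hippo pathway gave 0 rises and 3 falls among 22 (at an unadjusted p under 0.05, 0 and 7, and by DESeq2 0 and 5), with a median log2 fold change of −0.15. Tead4, a DNA-binding partner of YAP, fell from 6.03 and 5.83 to 3.21 and 3.37 RPKM (edgeR adjusted p = 0.019). Ajuba, a LIM protein that restrains Lats kinases at junctions under tension, fell from 34.8 and 37.4 to 22.7 and 21.3 RPKM (log2 fold change −0.74 ± 0.08, SE; edgeR adjusted p = 0.004). Lats2, the kinase that phosphorylates YAP, is itself a YAP target and stands in both lists, at 12.3 and 11.8 against 7.53 and 6.57 RPKM (edgeR adjusted p = 0.035). Ajuba reached an edgeR adjusted p of 0.055 without confluent B, Tead4 0.14 and Lats2 0.27, and the list had 8 falls without the 24 h pair and none without confluent B.

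The actin and contractile genes gave 0 rises and 3 falls among 22, with a median log2 fold change of −0.28. At an unadjusted p under 0.05, 0 were higher and 7 lower, and DESeq2 gave 0 rises and 5 falls. Zyx, a LIM protein of focal adhesions and stress fibres (chr6:42349630-42360213, plus strand), was among the most abundant called genes, at 264 and 286 RPKM in subconfluent and 129 and 115 RPKM in confluent cells. Its log2 fold change was −1.20 ± 0.11 (SE; edgeR adjusted p = 0.0024, at most 0.027 with a library left out). Tpm4, a tropomyosin, was at 477 and 472 against 347 and 342 RPKM (edgeR adjusted p = 0.028) and Actg2, a smooth muscle actin, at 47.7 and 50.3 against 32.4 and 29.2 RPKM (edgeR adjusted p = 0.041). Zyx alone passed with each of the 4 libraries left out, and 11 of the 22 fell without the 24 h pair. Tpm4 overlaps Gm26586 and Zyx overlaps Epha1 on the opposite strand, both with fewer reads.

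TEAD factors bind the letters GGAATG. These were present, on either strand, in 41.2% of 17 promoters of the YAP/TEAD target list, against 12.8% of all promoters of genes tested. They were also in 33.3% of 21 promoters of the actin and contractile list. Both lists were counted whole, members that did not pass included, so these shares describe the lists and not the change. The share was 20.5% of 78 promoters of genes called lower and 14% of 215 promoters of genes called higher. Many known TEAD sites lie in distant enhancers, which these windows do not cover. The windows of 4 genes that fell and held the letters are shown, 5′ to 3′ on the minus strand of GRCm38.p6 as RefSeq gives them, with GGAATG or its reverse complement CATTCC in capitals. They lie at chr19:36119795-36120094 (Ankrd1), chr7:25788684-25788983 (Axl), chr14:57746074-57746373 (Lats2) and chr14:54577612-54577911 (Ajuba). Ankrd1 and Ajuba held the letters at 2 positions each.
Ankrd1: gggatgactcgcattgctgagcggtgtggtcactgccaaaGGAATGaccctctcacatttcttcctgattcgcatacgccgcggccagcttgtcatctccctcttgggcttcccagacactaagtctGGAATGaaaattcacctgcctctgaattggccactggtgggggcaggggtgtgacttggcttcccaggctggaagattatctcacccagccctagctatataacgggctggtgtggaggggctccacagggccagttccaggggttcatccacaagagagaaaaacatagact
Axl: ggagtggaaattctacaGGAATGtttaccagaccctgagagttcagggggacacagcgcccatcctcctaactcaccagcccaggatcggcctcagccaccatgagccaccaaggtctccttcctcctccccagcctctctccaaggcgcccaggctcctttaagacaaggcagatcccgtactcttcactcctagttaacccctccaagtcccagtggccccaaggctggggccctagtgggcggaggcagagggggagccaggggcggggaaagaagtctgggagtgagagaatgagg
Lats2: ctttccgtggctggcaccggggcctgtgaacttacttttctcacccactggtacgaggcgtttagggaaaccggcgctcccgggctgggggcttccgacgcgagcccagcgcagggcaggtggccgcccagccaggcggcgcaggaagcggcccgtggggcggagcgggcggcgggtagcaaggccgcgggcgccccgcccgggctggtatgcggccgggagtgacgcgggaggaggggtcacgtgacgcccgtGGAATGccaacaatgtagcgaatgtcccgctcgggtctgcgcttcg
Ajuba: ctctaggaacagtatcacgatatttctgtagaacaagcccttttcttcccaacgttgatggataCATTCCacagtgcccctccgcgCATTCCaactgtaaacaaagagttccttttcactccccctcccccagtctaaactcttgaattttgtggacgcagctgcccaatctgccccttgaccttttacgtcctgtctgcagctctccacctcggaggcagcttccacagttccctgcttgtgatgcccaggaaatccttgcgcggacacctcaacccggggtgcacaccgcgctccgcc

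Other letters were searched in the same windows. The AP-1 letters TGANTCA were in 14.1% of promoters of genes called lower, 4.65% of those called higher and 5.48% of all, and TTTGAA in 20.5%, 10.7% and 12.7%. The CArG box, bound by serum response factor, was in 33.3% of 21 promoters of the actin list and 1.43% of all, and in 1.28% and 1.4% of promoters of genes called lower and higher. The share of the actin list again counts members that did not pass. The E2F letters were in 3.85% of promoters of genes called lower and 2.33% of those called higher. RefSeq windows were matched for 160 of the 209 genes called higher and 50 of the 88 called lower.

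Of 21 collagen genes tested 1 rose and 0 fell (median log2 fold change −0.01.) At an unadjusted p under 0.05, 5 were higher and 2 lower, and DESeq2 gave 1 fall. Col3a1, the chain of type III collagen, was at 344 and 331 RPKM in subconfluent and 576 and 561 RPKM in confluent cells and rose 1.66-fold (edgeR adjusted p = 0.045, at least 0.17 with a library left out, and 5 rises and 2 falls without the 24 h pair). Outside this list, Col11a2, a minor fibril collagen, was among the largest rises, from 0.329 and 0.386 to 3.26 and 4.68 RPKM (log2 fold change 3.46 ± 0.20, SE; edgeR adjusted p = 5.3e-04).

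Among 30 other matrix proteins and crosslinking enzymes, 5 rose and 5 fell (median log2 fold change −0.14.) All of those that rose encode small leucine-rich proteoglycans, which coat collagen fibrils. Lum (lumican) was at 164 and 146 RPKM in subconfluent and 353 and 354.5 RPKM in confluent cells (log2 fold change 1.16 ± 0.10, SE; edgeR adjusted p = 0.0021). Dcn (decorin) was at 70.8 and 71.5 against 135 and 136 RPKM (0.91 ± 0.08; edgeR adjusted p = 0.0025). Aspn and Omd rose 2.21-fold and 3.25-fold, and Prelp 1.68-fold. In each the confluent pair lay above the subconfluent pair, but how many of all genes tested did so was not counted.

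The falls included enzymes that crosslink collagen and elastin. Lox was at 110 and 104.5 RPKM in subconfluent and 53.6 and 43.9 RPKM in confluent cells (log2 fold change −1.17 ± 0.20, SE; edgeR adjusted p = 0.026), and Loxl1 at 12.4 and 12.6 against 7.28 and 6.38 RPKM (edgeR adjusted p = 0.0029). Has2, which makes hyaluronan, fell from 5.73 and 5.41 to 2.53 and 2.28 RPKM (edgeR adjusted p = 0.0027), and Ecm1 and Fbln5 also fell. Ecm1, Fbln5 and Prelp did not pass with any library left out. Lum, Loxl1 and Has2 passed with any library left out, while Dcn reached an edgeR adjusted p of 0.053 without subconfluent A, Omd 0.11, Aspn 0.16 and Lox 0.21. Npnt, a basement membrane ligand of integrin, was the most abundant called gene, at 273 and 260.5 against 583 and 576 RPKM (edgeR adjusted p = 0.042, at least 0.14 with a library left out). Aspn shares exon bases with Cenpp on the opposite strand.

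Proteases and their inhibitors went both ways, 3 up and 3 down among 24, with a median log2 fold change of 0.11. Serpine2, a serine protease inhibitor, rose from 17.9 and 17.2 RPKM in subconfluent to 40.3 and 42.5 RPKM in confluent cells (log2 fold change 1.21 ± 0.10, SE; edgeR adjusted p = 0.0018). Adamts5, which cleaves aggrecan, fell from 13.4 and 12.6 to 3.91 and 2.82 RPKM (edgeR adjusted p = 0.0031). Timp3, an inhibitor of metalloproteinases, fell 2.57-fold and Mmp9 rose 1.6-fold. Serpine2 and Adamts5 passed with any library left out. Timp3 did not pass without confluent B, subconfluent A or subconfluent B, and Mmp9 passed in none of these fits.

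Csf1, the growth factor of macrophages and osteoclast precursors (chr3:107741048-107760469, minus strand), was at 198.5 and 206 RPKM in subconfluent and 85.5 and 73.4 RPKM in confluent cells, a log2 fold change of −1.38 ± 0.12 (SE; edgeR adjusted p = 0.0024). Cxcl12, a chemokine that retains blood stem cells in marrow, was at 52.4 and 52.5 against 26.6 and 24.5 RPKM (−1.06 ± 0.09; edgeR adjusted p = 0.0017). Chemokines, cytokines and complement as a list gave 0 rises and 3 falls among 23, with a median log2 fold change of 0.07. At an unadjusted p under 0.05, 1 was higher and 3 lower, and DESeq2 gave 0 rises. The last fall was that of the interleukin 33 receptor gene Il1rl1. Csf1 and Cxcl12 passed with any library left out, and Il1rl1 with none (edgeR adjusted p 0.13 to 0.25). Hbegf, an EGF receptor ligand, fell 2.93-fold and Tnfrsf12a, the TWEAK receptor gene, 2.12-fold. Hbegf passed with any library left out, and Tnfrsf12a lost its call without confluent A, subconfluent A or subconfluent B (edgeR adjusted p = 0.062, 0.12 and 0.18).

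TGF-beta pathway genes gave 0 rises and 5 falls among 20 (1 and 8 at an unadjusted p under 0.05, 0 and 8 by DESeq2), with a median log2 fold change of −0.34. Tgfb3, a ligand, was at 48.4 and 48.5 RPKM in subconfluent and 29.2 and 26 RPKM in confluent cells (log2 fold change −0.84 ± 0.08, SE; edgeR adjusted p = 0.0029). Ltbp1 and Ltbp3, which tether the latent ligand to matrix, fell by 0.82 and 0.46 on the log2 scale. Skil and Pmepa1, feedback inhibitors that the pathway induces, fell 2.34-fold and 1.57-fold. With a library left out Tgfb3 passed each time, Ltbp1 reached an edgeR adjusted p of 0.11, Pmepa1 0.14 and Skil 0.25, and the list had 10 falls and 1 rise without the 24 h pair.

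BMP pathway genes gave 0 rises and 3 falls among 18 (0 and 8 at an unadjusted p under 0.05, 0 and 4 by DESeq2), with a median log2 fold change of −0.33. The target genes Id4 and Id2 fell by 0.78 and 0.62 on the log2 scale. Notch pathway genes gave 0 rises and 2 falls among 15 (1 and 4 at an unadjusted p under 0.05, 0 and 4 by DESeq2), with a median of 0.17. They were the ligand Jag1, from 7.03 and 6.54 to 3.76 and 3.49 RPKM (edgeR adjusted p = 0.024), and Lfng, which modifies Notch receptors, from 22.5 and 24 to 16.6 and 17.1 RPKM (edgeR adjusted p = 0.024). Jag1, Lfng and Id2 did not pass with any library left out, and Id4 passed without confluent A alone (edgeR adjusted p = 0.028). Without the 24 h pair the BMP list had 7 falls and the Notch list 2 rises and 4 falls.

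The insulin-like growth factor system divided. Of 14 genes 2 rose and 2 fell (median log2 fold change −0.25.) Igf1 fell from 8.37 and 8.17 to 4.67 and 4.1 RPKM (log2 fold change −0.94 ± 0.11, SE; edgeR adjusted p = 0.0048), whereas Igf2, at 0.819 RPKM or less in all 4 libraries, rose 1.83-fold (edgeR adjusted p = 0.032). Of the binding proteins, Igfbp4 rose from 4.52 and 4.62 to 10.1 and 10.9 RPKM (edgeR adjusted p = 0.0017) and Igfbp7 fell 1.57-fold. Igfbp4 passed with any library left out, and Igf1 did not pass without confluent B or without subconfluent A. Igf2 and Igfbp7, both under 2-fold, passed in none of these fits. Igfbp7 shares exon bases with the more abundant Polr2b.

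Of 27 cadherins, junction and gap junction genes 1 rose and 1 fell (median log2 fold change −0.14), and 2 rose and 10 fell without the 24 h pair. At an unadjusted p under 0.05, 2 of the 27 were higher and 10 lower. Panx3, a channel protein of osteoblasts and chondrocytes, was at 7.35 and 6.72 RPKM in subconfluent and 21.5 and 23.7 RPKM in confluent cells (log2 fold change 1.66 ± 0.11, SE; edgeR adjusted p = 8.1e-04, at most 0.016 with a library left out). Gjc1, the gap junction protein connexin 45, fell from 11.4 and 11.1 to 7.5 and 6.97 RPKM (edgeR adjusted p = 0.009). Gjc1 did not pass without confluent B, subconfluent A or subconfluent B.

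**Figure D3:**
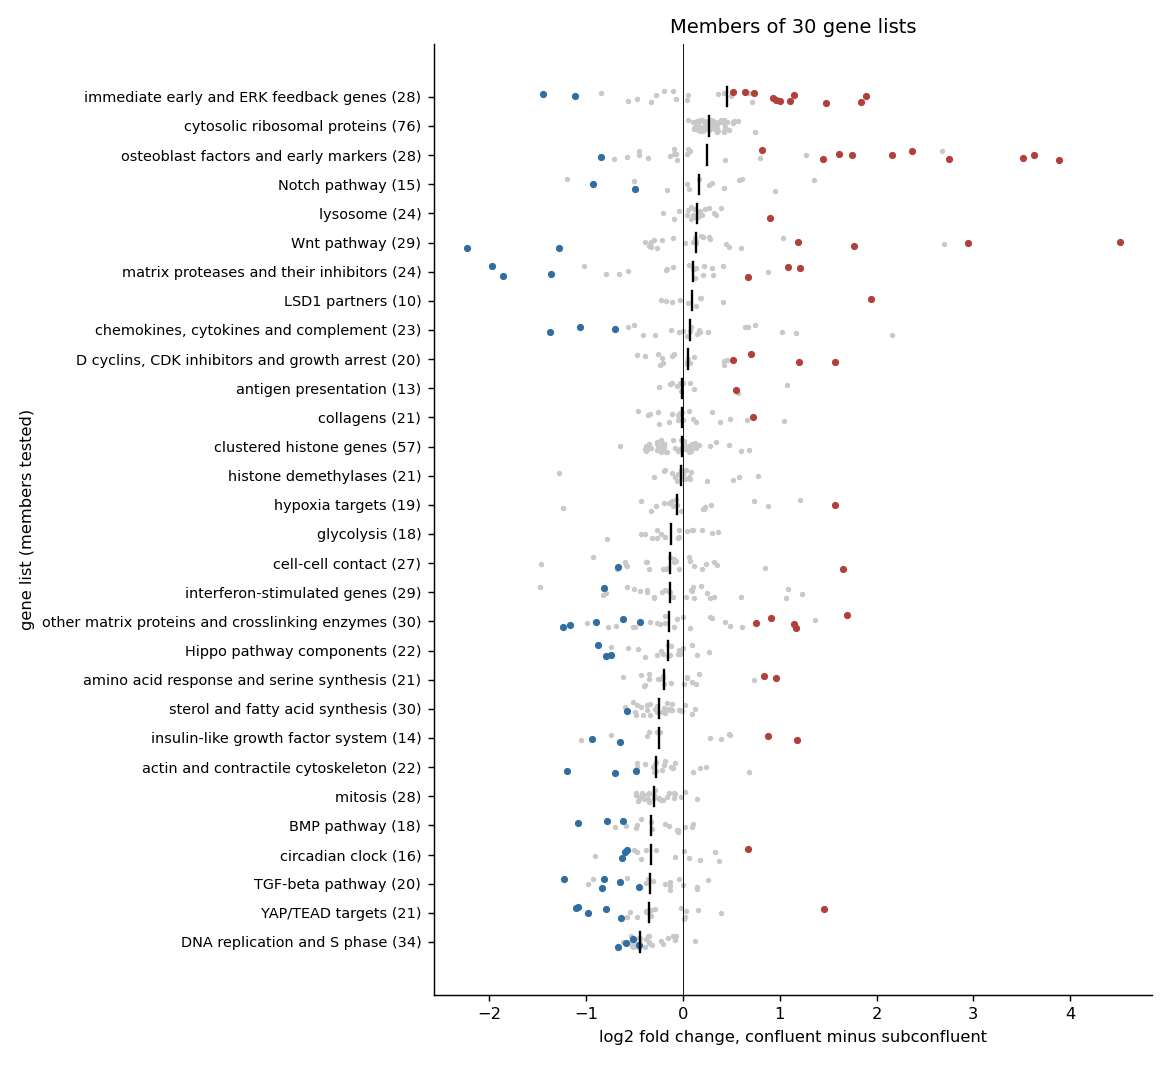
Log2 fold change, confluent minus subconfluent, of the tested members of 30 gene lists; red points rose and blue points fell at an adjusted p under 0.05, grey points did not pass, and the black tick is the median of the list. The highest median, 0.46, belongs to the immediate early genes and the lowest, −0.45, to DNA replication.

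Sterol and fatty acid synthesis gave 1 fall and 0 rises among 30 (12 and 0 at an unadjusted p under 0.05, 9 and 0 by DESeq2, 13 and 0 without the 24 h pair), with a median log2 fold change of −0.24 and fitted values below 0 in 27. The fall was Hmgcs1, an early enzyme of cholesterol synthesis, at 190 and 181 RPKM in subconfluent and 139 and 115 RPKM in confluent cells (edgeR adjusted p = 0.05 after rounding, 0.071 to 0.31 with a library left out). For glycolysis edgeR gave 0 among 18 in either direction, with 1 rise and 4 falls at an unadjusted p under 0.05 and 1 and 3 by DESeq2, and a median of −0.12. Gapdh, the most abundant, was at 454 and 488 against 458 and 473 RPKM.

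Among 19 hypoxia targets Ddit4 alone rose, with a median log2 fold change of −0.06 and 0 falls (2 at an unadjusted p under 0.05, 0 by DESeq2), and 2 rises and 2 falls without the 24 h pair. Ddit4, an inhibitor of mTORC1, was at 18.9 and 19 RPKM in subconfluent and 55.8 and 58.4 RPKM in confluent cells (log2 fold change 1.57 ± 0.09, SE; edgeR adjusted p = 5.3e-04, at most 0.016 with a library left out). Of 21 genes of the amino acid response and serine synthesis 2 rose and 0 fell, with a median of −0.19. At an unadjusted p under 0.05, 3 were higher and 7 lower, with 5 falls by DESeq2 and 7 without the 24 h pair. The rises were Sesn2, another inhibitor of mTORC1, from 17.9 and 19.1 to 37.2 and 36.1 RPKM (edgeR adjusted p = 0.0086), and Chac1, which degrades glutathione (edgeR adjusted p = 0.03). Sesn2 did not pass without confluent B, subconfluent A or subconfluent B, and Chac1 did not pass with any library left out.

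Lysosomal genes gave 1 rise and 0 falls among 24 (6 and 0 at an unadjusted p under 0.05, 3 and 0 by DESeq2, 7 and 1 without the 24 h pair), with a median log2 fold change of 0.15 and fitted values above 0 in 21. The rise was the sialidase gene Neu1, at 4.18 and 4.32 RPKM in subconfluent and 6.42 and 9.7 RPKM in confluent cells (edgeR adjusted p = 0.044). Neu1 did not pass without confluent B, subconfluent A or subconfluent B. Clock genes gave 1 rise and 3 falls among 16, with a median of −0.33. Bhlhe41 rose 1.59-fold, and Cry2, Nr1d2 and Bhlhe40 fell by 0.63, 0.58 and 0.60 on the log2 scale. Of these Bhlhe41 alone passed with a library left out, without confluent A (edgeR adjusted p = 0.023), and the list had 3 rises and 7 falls without the 24 h pair.

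Of 29 interferon-stimulated genes 0 rose and 1 fell, Ifi44, with a median log2 fold change of −0.14. At an unadjusted p under 0.05, 1 was higher and 5 lower, and DESeq2 gave 0 rises. Without the 24 h pair 1 rose and 5 fell. Antigen presentation gave 1 rise, the peptide transporter gene Tap1, and 0 falls among 13, with a median of −0.01. At an unadjusted p under 0.05, 2 were higher and 0 lower, and DESeq2 gave 0 falls. Ifi44 was at 1.37 and 1.27 against 0.758 and 0.768 RPKM (edgeR adjusted p = 0.04) and Tap1 at 17.4 and 18.9 against 27 and 26.9 RPKM (edgeR adjusted p = 0.028). Neither passed with any of the 4 libraries left out.

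Histone demethylases remove methyl groups from histones. Kdm1a (LSD1), which acts on histone H3, was at 17.4 and 17.7 RPKM in subconfluent and 18.15 and 17.55 RPKM in confluent cells (log2 fold change −0.00 ± 0.07, SE; edgeR adjusted p = 1). Of 21 histone demethylase genes 0 passed in either direction, with 2 rises and 0 falls at an unadjusted p under 0.05 and 2 and 0 by DESeq2, 4 and 0 without the 24 h pair, and a median of −0.02. Kdm7a, a demethylase of H3 lysines 9 and 27, had the largest fitted rise, at 0.666 and 0.607 against 1.19 and 1.04 RPKM (log2 fold change 0.77 ± 0.21, SE; edgeR adjusted p = 0.11). The lowest fitted value in the list was −1.28 on the log2 scale.

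Of 10 partners of LSD1, 1 rose and 0 fell (1 at an unadjusted p under 0.05, 0 by DESeq2), with a median log2 fold change of 0.09. It was Rcor2, a corepressor that links LSD1 to nucleosomes, at 3.75 and 3.48 RPKM in subconfluent and 13.9 and 14.3 RPKM in confluent cells (log2 fold change 1.94 ± 0.08, SE; edgeR adjusted p = 2.8e-04, at most 0.0094 with a library left out).

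Clustered histone genes gave 0 of 57 in either direction with edgeR (3 rises and 0 falls at an unadjusted p under 0.05, 0 by DESeq2, 3 rises without the 24 h pair), with a median log2 fold change of −0.01. Cytosolic ribosomal protein genes gave 0 of 76 (1 rise at an unadjusted p under 0.05, 0 by DESeq2), with a median of 0.27 and fitted values above 0 in 76 of 76, in 75 with the gene length trend removed or without a subconfluent library, and in 70 without confluent B. Their summed level was 46250 and 46540 RPKM in subconfluent and 52190 and 63290 RPKM in confluent cells, and 14 rose without the 24 h pair. The 30 genes of the mitochondrial genome had no counts in these libraries and could not be tested.

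The largest changes also included genes outside these lists. Ramp1, which pairs with the calcitonin receptor-like receptor, rose from 0.438 and 0.289 to 3.98 and 5.88 RPKM (log2 fold change 3.69 ± 0.29, SE; edgeR adjusted p = 0.0016). Agt, the precursor of angiotensin, rose 5.7-fold, from 1.08 and 0.992 to 6.22 and 5.88 RPKM (edgeR adjusted p = 7.3e-04). Slc8a3, a sodium-calcium exchanger, and Rerg, a small GTPase, rose 7.81-fold and 6.79-fold. Of the falls, Npr3, the clearance receptor of natriuretic peptides, went from 11.3 and 10.8 to 3.87 and 3 RPKM (log2 fold change −1.71 ± 0.14, SE; edgeR adjusted p = 0.0018). All 5 passed with any library left out. Larger falls were those of Siglecg and Cd244a, both receptor genes of immune cells. Siglecg went from 2.36 and 2.13 to 0.465 and 0.463 RPKM (log2 fold change −2.30 ± 0.26, SE; edgeR adjusted p = 0.0053, 0.07 without confluent B and 0.064 without subconfluent A). Cd244a went from 3.04 and 2.5 to 0.627 and 0.583 RPKM (−2.22 ± 0.21; edgeR adjusted p = 0.0028) and passed with any library left out. Ly6a and Klra4 fell 5.34-fold and 4.6-fold, but both have close relatives among mouse genes, so their reads could be shared, and neither passed with any library left out.

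Abi3, an actin regulator, rose 7.47-fold but overlaps Phospho1 and Zfp652, and Spns2, a transporter of sphingosine 1-phosphate, rose 4.36-fold but shares exon bases with the much more abundant Mybbp1a. Among the 297 called genes 67 share exon bases with another gene, 30 of them with a more abundant gene. Of the called genes 276 are protein-coding and 11 antisense.

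In osteogenic medium, levels of these genes went different ways. Ibsp averaged 1042 RPKM at 24 h, 4227 at 14 d and 2540 at 21 d, and Phospho1 67.1, 284 and 54.8 RPKM. Tcf7 averaged 33, 100 and 42.4 RPKM. For these genes the change at 24 h from confluence was 2.46, 0.84 and 0.88 on the log2 scale (edgeR adjusted p = 0.0028, 0.0084 and 0.025), beside 3.63, 3.51 and 2.94 for confluence itself. The first comparison and this step share the confluent libraries, so they are given only side by side. Fos went the other way at 24 h, by −1.56 (edgeR adjusted p = 0.0025), and Egr1 by −1.03 (edgeR adjusted p = 0.019), beside 1.89 and 1.84 at confluence.

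Lox, lower at confluence, was higher at 24 h than at confluence, by 1.52 on the log2 scale (edgeR adjusted p = 0.0079). Both changes use the same confluent libraries, so a fall followed by a rise is not independent evidence. Cdkn1a was at 146, 186 and 229 RPKM on average at 24 h, 14 d and 21 d. Rrm2 averaged 46, 24.9 and 6.87 RPKM at those times, and the median log2 fold change of the replication list was −0.36 from confluence to 24 h, −0.61 from 24 h to 14 d and −1.49 from 14 d to 21 d, beside −0.45 at confluence. That of the mitosis list was −0.62, −0.43 and −1.89, beside −0.30.

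**Figure D4:**
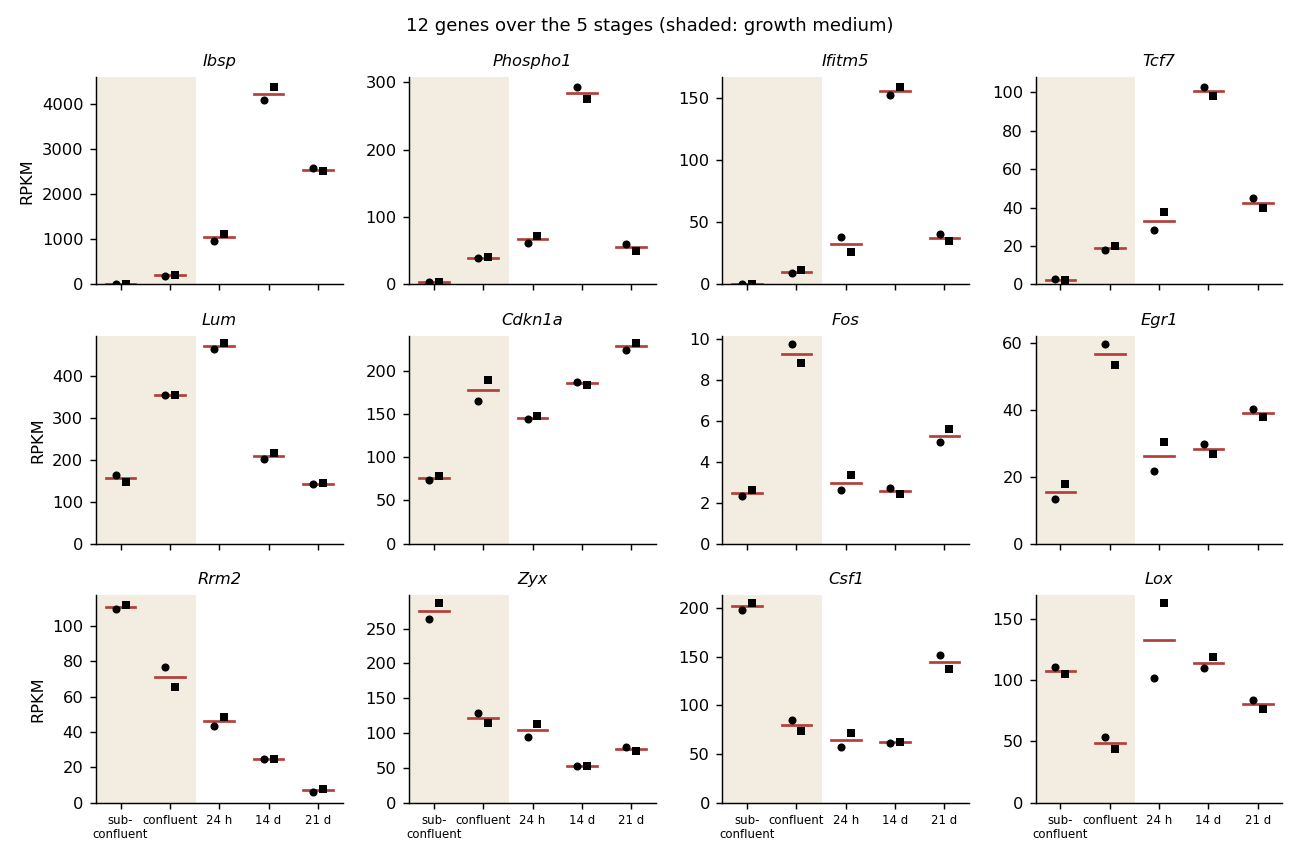
RPKM (linear axis from 0) of 12 genes at 5 stages, circles for replicate A, squares for replicate B and red bars for the mean of both; the shaded stages are in growth medium. Ibsp has its highest mean at 14 d, 4227 RPKM, and Rrm2 its lowest at 21 d, 6.87 RPKM.

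The step from 14 d to 21 d shares no library with this comparison and had 826 calls, 317 higher (1.52%) and 509 lower (2.45%). Of the 209 genes called higher at confluence, 35 were called lower from 14 d to 21 d (16.7% of the first list and 6.88% of the second), and 10 were called higher (4.78% and 3.15%). The 35 included Alpl, Ifitm5, Phospho1, Panx3, Smpd3, Omd and Tcf7, and the 10 included Igfbp4. Of the 88 called lower at confluence, 13 were called higher from 14 d to 21 d (14.8% and 4.1%), among them Csf1, Timp3 and Ccn5, and 7 were called lower (7.95% and 1.38%), among them Col2a1 and Ccn4. These 4 overlaps of 35, 10, 13 and 7 genes became 30, 8, 8 and 4 without confluent A, 24, 2, 7 and 1 without confluent B, 21, 4, 7 and 1 without subconfluent A, and 27, 5, 8 and 3 without subconfluent B. Without the 24 h pair they were 53, 20, 26 and 15.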

How the data were processed

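The authors aligned reads to mm10 with TopHat2 2.0.9 (FastQC and R 3.0.1 are also in their notes) and deposited gene counts with gene length. The RPKM the authors deposited divide counts by gene length and by whole-number read totals in 1e+06 reads (103, 31, 34 and 108 for the 4 libraries). That table ends within a row, and RPKM of 18 genes were recomputed from counts. Counting tool, annotation and strand are not given in the sources used here. The 4 columns of single lanes of 14 d A and 21 d B were not used, since each of these samples also has a merged column.

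Counts of all 10 libraries in 5 stages were fitted with the quasi-likelihood test of edgeR 4.0.16 (R 4.3.3) after filterByExpr and TMM scaling, with Benjamini-Hochberg adjustment over 20808 genes. RPKM served to show levels. Gene positions and shared exon bases came from GENCODE, promoters from RefSeq. Alternatives changed the tool (DESeq2 1.42.0, limma 3.58.1), scaling, filter, thresholds, libraries and block. The procedure was tested on simulated data. Depth leaves genes of few counts imprecise.

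Members, the 31 gene lists and the 8 marker lists were chosen with earlier results of these data known. Named genes were the 15 largest rises and 15 largest falls among calls of at least 2 CPM without overlap of the groups, the 10 most abundant calls, up to 4 passing members of each list in each direction (else its most abundant member), Kdm1a, and Sp7, Runx2, Runx1, Dmp1, Alpl, Bglap and Kdm7a. Genes outside that rule, such as Pth1r, Dlx3, Phex, Nr4a1, Klf2, Egr2, Atf3, Dusp1, Myc, Klf4, Ccnd1, Ccn1, Ccdc80, Prelp, Fbln5 and Ltbp3, were chosen after their values were seen.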

Additional observations from a re-analysis of the deposited data

How the results depend on the processing

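None of the 297 called genes changed direction under any alternative that gave it a value, and 41 of the 109 named genes that passed did so in all 16 settings other than the replicate block on 4 libraries. The groups did not overlap in any called gene and the alternatives reuse the same libraries, so a change of direction was hardly possible. DESeq2 called 464 genes (163 lower), with 1855 past the adjusted p (878 higher, 977 lower). Without the 24 h libraries there were 495 calls (331 higher, 164 lower) and 3299 past the adjusted p (1632 and 1667). With only the 4 libraries compared, edgeR called 360 genes (142 lower) and 1108 passed (566 lower). limma on log2(RPKM + 1) called 128 (77 and 51), and 537 for 21 d against 14 d. Removing the gene length trend gave 1235 past the adjusted p (622 and 613), and scaling by library size alone 159 lower. An adjusted p under 0.01 gave 151 calls (113 and 38) and 209 past it (145 and 64). More than 1.5-fold gave 538 calls (345 and 193) and more than 4-fold 81 (64 and 17). Apart from the changed thresholds and samples, the cause was not tested.

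Leaving out each of the 4 libraries in turn gave 107 to 237 calls (86 to 180 higher, 21 to 57 lower) and 120 to 340 past the adjusted p (90 to 250 and 30 to 90), and 746 to 755 calls for 21 d against 14 d, whose own libraries all stayed in. Of the 109 named genes, 65 passed without confluent A, 45 without confluent B, 43 without subconfluent A and 48 without subconfluent B. The lone sample was assumed to vary like the other groups.

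The labels do not say that the letters A and B pair cultures. Across genes, the difference of A from B in subconfluent cells correlated with that in confluent cells at −0.0823, and between any 2 stages at −0.311 to 0.156. The deep library is A in subconfluent and B in confluent cells, so this does not settle whether they pair. With the replicate block in the fit to all 10 libraries, edgeR called 57 genes lower and 351 passed (232 and 119). With the replicate block in the fit to the 4 libraries, edgeR called 0 genes and 0 passed in either direction (lowest adjusted p 0.052), where 5586 had an unadjusted p under 0.05. Without the block edgeR called 360 on the same 4 libraries, and DESeq2 on all 10 called 464. With the filter of 10 counts in each of the 4 libraries, no endothelial marker was left to give a median. Depth limits genes of low level, and 102 genes called higher and 21 called lower were under 2 CPM.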

Other observations

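The genes described here lie outside the lists and were chosen after their values were seen. The first 5 are known as p53 targets. No list of such targets was counted or tested, so 5 genes picked with their values seen do not describe the targets as a group. Bbc3, which encodes the cell death protein PUMA, was at 6.36 and 7.44 RPKM in subconfluent and 17.4 and 25.6 RPKM in confluent cells (log2 fold change 1.62 ± 0.20, SE, n = 2 per group; edgeR adjusted p = 0.0075). Trp53inp1, a cofactor of p53, was at 3.82 and 2.99 against 10.1 and 9.85 RPKM (1.52 ± 0.16; edgeR adjusted p = 0.0037). Plk2, a polo-like kinase, was at 13.4 and 13.3 against 27.6 and 29.2 RPKM (edgeR adjusted p = 0.0025). Fas, the death receptor, was at 3.57 and 3.21 against 8.92 and 8.97 RPKM (edgeR adjusted p = 0.01), and Eda2r, a receptor of ectodysplasin, at 3.97 and 3.71 against 8.53 and 8.16 RPKM (edgeR adjusted p = 0.032). In each gene both confluent libraries lay above both subconfluent libraries, but the share of all genes tested without overlap was not counted. With 1 library left out Trp53inp1 and Plk2 passed each time, Bbc3 reached an edgeR adjusted p of 0.093 without subconfluent A and 0.066 without subconfluent B, and Fas (0.052 to 0.12) and Eda2r (0.12 to 0.2) never passed.

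The next are single genes of other kinds. Fgf7, a growth factor for epithelia, was at 67.4 and 60.9 RPKM in subconfluent and 33.8 and 31.1 RPKM in confluent cells (log2 fold change −1.01 ± 0.11, SE; edgeR adjusted p = 0.0048, 0.063 without confluent B and 0.053 without subconfluent A). Pdgfa, a chain of platelet-derived growth factor, was higher, at 23.1 and 24.2 against 49.8 and 51.6 RPKM (edgeR adjusted p = 0.0019). Ptgfr, the receptor of prostaglandin F, rose from 9.47 and 8.21 to 25.5 and 25.9 RPKM, and Fzd9, a Wnt receptor, from 1.44 and 1.38 to 4.59 and 4.93 RPKM. Tmem119, a membrane protein of osteoblasts, rose 2.46-fold, from 24.5 and 25.9 to 60.2 and 66.2 RPKM (edgeR adjusted p = 0.0016). Hmga2, a chromatin protein of growing mesenchymal cells, fell from 10.3 and 9.93 to 3.95 and 3.34 RPKM (edgeR adjusted p = 0.003). Pdgfa, Ptgfr, Fzd9, Tmem119 and Hmga2 passed with any of the 4 libraries left out.

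Tyrobp, at 179 RPKM in confluent B alone of the 4 libraries, was also high in single libraries of later stages. It was at 0.497 and 214 RPKM in 14 d A and B and at 256 and 0.268 RPKM in 21 d A and B.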
